A study of Homo sapiens with 18 samples.

Results

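The genes described are 55 ribosome biogenesis factors, a fixed list of nucleolar and pre-ribosome proteins that was matched by symbol to Ensembl identifiers. No measured value served as a rule of choice, but the list was drawn up with earlier results of these data known. All 55 were found among the 58302 genes of the expression table. They were divided by role into 3 box C/D snoRNP core proteins, 4 box H/ACA snoRNP core proteins, 23 factors of the small-subunit processome, 9 factors of late 40S maturation, 8 factors of 60S assembly, 2 abundant nucleolar proteins and 6 factors of RNA polymerase I transcription. The cells were PANC-1, an established human pancreatic ductal adenocarcinoma line, carrying a lentiviral vector with a control short hairpin RNA (shCtrl) or one that targets the acetyltransferase NAT10 (shNAT10). For RNA-seq there were 3 libraries per group. For acRIP-seq, in which RNA fragments bearing N4-acetylcytidine (ac4C) are pulled down with an antibody, there were 3 immunoprecipitated (IP) and 3 input samples per group, which were given as 1 pooled peak list per group. The sources used here do not say which hairpin these libraries carried or that replicates came from separate cultures, so p-values measure the spread between these libraries, which may be technical. As these are bulk samples of one cell line, fewer cells with a transcript and less RNA per cell cannot be told apart.

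Ribosomes are built in the nucleolus. RNA polymerase I transcribes a long precursor, small nucleolar ribonucleoproteins (snoRNPs) modify it, the small-subunit processome folds and cuts the part that becomes the 18S rRNA, and separate sets of factors complete the 40S and 60S subunits. NAT10 is itself a nucleolar protein of this pathway: it acetylates cytidines of 18S rRNA with the help of a box C/D snoRNA, and it also acetylates certain tRNAs and mRNAs. The comparison asks whether the RNA of its partners in small-subunit assembly, and of the neighbouring steps, differed after its knockdown, and which of these mRNAs carried ac4C peaks.

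NAT10 itself was at 31.6, 27.7 and 28.6 FPKM (fragments per kilobase of transcript, scaled to the depth of the library) in shCtrl replicates 1 to 3 and at 7.92, 8.43 and 7.90 FPKM in shNAT10 replicates 1 to 3. The groups did not overlap, and the log2 fold change of shNAT10 over shCtrl was -1.84 ± 0.08 (SE, limma, adjusted p = 3.85e-05). An exact two-sided permutation test of 3 against 3 libraries cannot go below p = 0.1, the value it gave for NAT10, so single genes were judged by the limma fit across all genes with Benjamini-Hochberg adjustment. Recovered depth was between 15831720 and 23521762 reads per library, and each factor had between 113 and 57515 reads in a library. The epithelial keratins KRT8, KRT18 and KRT19 lay between 159 and 2009 FPKM in the 6 libraries and KRT7 between 4.52 and 10.7 FPKM, with all 4 lower in shNAT10 (log2 fold changes from -1.18 to -0.83). Of the markers of other cell types given here, CD3E was at 0 in every library, PTPRC, CD68, PECAM1 and ALB did not exceed 0.455 FPKM, COL3A1 lay between 0.677 and 2.04 FPKM and COL1A1 between 17.2 and 34.0 FPKM. COL3A1 was higher (log2 fold change 1.24) and COL1A1 lower (-0.69) in shNAT10, and the part of these shifts in the results was not tested.

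The control libraries differed from each other with transcript length. In shCtrl replicate 2, short transcripts were higher and long ones lower than in the other controls: the deviation from their mean had a Spearman rho of -0.68 with the length of the longest transcript over the 55 factors and of -0.53 over 12956 genes, which all share that library. For shCtrl replicate 1, set against the mean of replicates 2 and 3, the same rho had the opposite sign, 0.74 over the factors and 0.49 over all genes, and for replicate 3 it was 0.22 and 0.32. These 3 deviations are not independent, since each library enters the mean that the others are set against. The H/ACA protein NOP10, whose transcript of 554 bases was the shortest, was at 139, 213 and 159 FPKM in shCtrl replicates 1 to 3. For UTP20, a long scaffold of the processome with a transcript of 9025 bases, the same libraries gave 9.04, 5.78 and 8.27 FPKM. shCtrl replicate 2 was the highest control for 35 of the 55 factors and the lowest for 12, and replicate 1 was the highest for 14 and the lowest for 32.

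**Figure D1:**
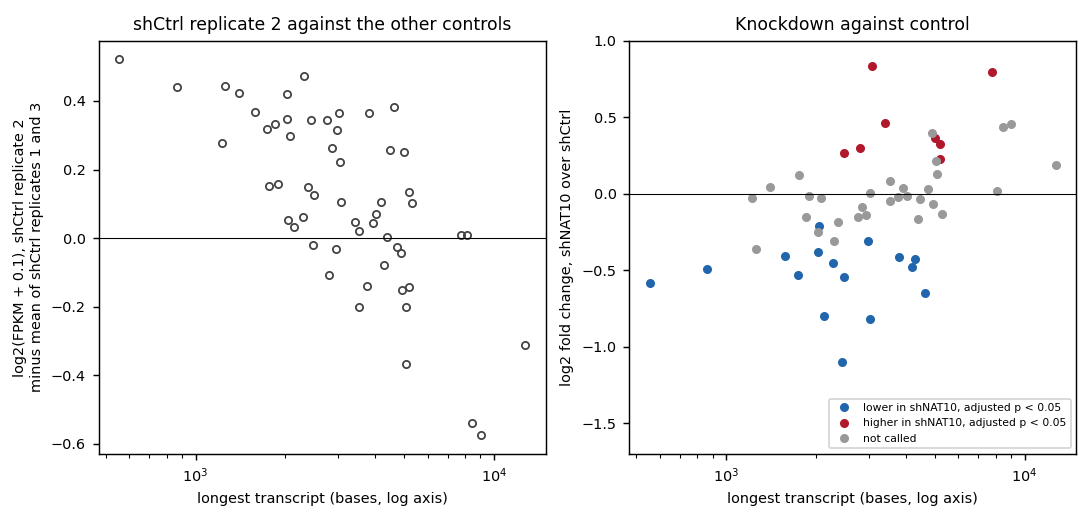
Each point is 1 of the 55 factors, placed by the length of its longest transcript in bases (log axis). On the left is the log2 level in shCtrl replicate 2 minus the mean of shCtrl replicates 1 and 3, which falls from above 0 for short transcripts to below 0 for the longest; on the right is the log2 fold change of shNAT10 over shCtrl, coloured by call.

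All 55 factors passed the filter of at least 1 FPKM in at least 3 libraries, among 12982 genes tested. At an adjusted p under 0.05 by limma, 16 of the 55 (29.1%) were lower in shNAT10, beside 21.2% of all genes tested, and 8 (14.5%) were higher, beside 20.8%. The other 31 were not called. The median log2 fold change of the factors was -0.05 and that of all genes -0.01, and the 24 called factors had non-overlapping groups, as did 99.9% of all called genes. Of the 31 factors that were not called, 10 had groups without overlap, beside 25.1% of all genes that were tested and not called. The changes were small: among the 16 lower factors the size of the log2 fold change ran from 0.21 to 1.10 with a median of 0.49, and among the 8 higher from 0.22 to 0.83 with a median of 0.34. Past a 2-fold change there was 1 factor lower, POLR1C, and none higher, beside 3.57% and 2.91% of all genes. Without shCtrl replicate 2 the counts were 18 lower and 12 higher and all 24 calls were kept, beside 25.6% and 25.4% of all genes, and no factor was past a 2-fold change. Without shCtrl replicate 1 they were also 18 and 12 with all 24 calls kept, beside 23.1% and 22.2%. Without shCtrl replicate 3 they were 11 and 6 with 17 of the 24 calls kept, beside 14.6% and 15.2%. With values scaled as TPM, which moved the median of all genes to 0.10, 13 factors were lower and 10 higher, beside 16.0% and 25.8% of all genes. Without shNAT10 replicate 1, 2 or 3 the lower factors were 9, 9 and 8 and the higher ones 4, 4 and 5. Over all genes those fits called 14.1%, 14.6% and 13.6% lower and 14.1%, 13.7% and 13.7% higher. Beside genes described further on, NHP2, MPHOSPH10, RRP7A, RRP9, BYSL and TSR1 lost their call in each of these 3 fits (adjusted p from 0.0569 to 0.136), TAF1C lost it without shNAT10 replicate 3 (0.0525), and RRP7A, RRP9, BYSL and TSR1 lost it without shCtrl replicate 3 (from 0.0544 to 0.108).

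**Figure D2:**
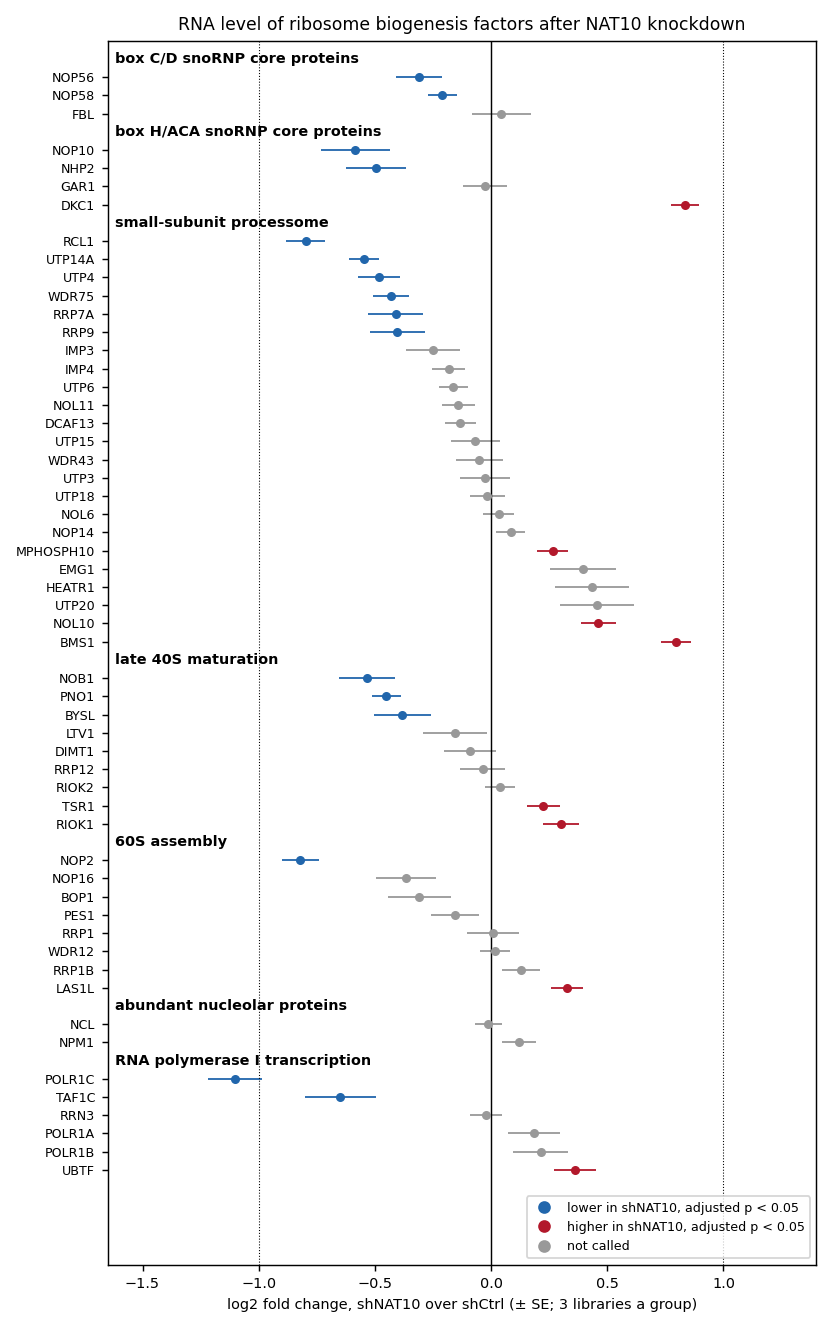
Log2 fold change of shNAT10 over shCtrl (x axis, ± SE from limma, 3 libraries per group) for each of the 55 factors, ordered by size within its functional group. Blue points (16) were lower and red points (8) higher at an adjusted p under 0.05, grey points were not called, and dotted lines mark a 2-fold change, which only POLR1C passed.

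The box C/D snoRNP core is the machinery that carries the guide RNAs for 2′-O-methylation and that NAT10 depends on for 18S rRNA. NOP56 and NOP58, the paired scaffold proteins of this particle, fell slightly, and FBL, its methyltransferase, was not called. NOP56 (chr20:2652145-2658393 on GRCh38) was at 60.9, 77.6 and 63.8 FPKM in shCtrl replicates 1 to 3 and at 51.7, 55.0 and 55.5 FPKM in shNAT10, without overlap (log2 fold change -0.31 ± 0.10, limma adjusted p = 0.0424). NOP58 was at 84.2, 89.9 and 89.1 FPKM against 74.0, 75.7 and 78.0 FPKM, again with every knockdown library below every control (-0.21 ± 0.06, adjusted p = 0.0299). Neither call was firm: without shCtrl replicate 3, or without shNAT10 replicate 1, 2 or 3, the adjusted p of NOP56 became 0.0752, 0.138, 0.104 and 0.0982 and that of NOP58 0.107, 0.119, 0.111 and 0.0807. Over all alternatives the adjusted p ran from 0.00892 to 0.138 for NOP56 and from 0.00295 to 0.187 for NOP58. FBL, the most abundant of the 55 factors, was at 1432, 2030 and 1601 FPKM against 1735, 1762 and 1664 FPKM. The knockdown libraries lay inside the spread of the controls (0.04 ± 0.13, adjusted p = 0.807), of which shCtrl replicate 2 was the highest. FBL was called higher with quantile normalization (0.34, adjusted p = 0.00548) and after the length and GC correction (0.16, adjusted p = 0.0311). Without shCtrl replicate 2 the log2 fold change of FBL was 0.18 (adjusted p = 0.0353), and without shCtrl replicate 1 it was -0.07 (adjusted p = 0.632).

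The box H/ACA core, which carries the guides for pseudouridylation, split by subunit. DKC1, the pseudouridine synthase, rose, the small subunits NOP10 and NHP2 fell, and GAR1 was not called (log2 fold change -0.03 ± 0.10). DKC1 was at 47.0, 51.3 and 48.4 FPKM in shCtrl and at 86.4, 87.3 and 88.0 FPKM in shNAT10 replicates 1 to 3 (0.83 ± 0.06, adjusted p = 0.000163). The groups lay far apart compared with the spread within them, and this was the largest rise among the 55. NOP10 went from the control values above to 116, 111 and 109 FPKM (-0.58 ± 0.15, adjusted p = 0.0184). Its log2 fold change was -0.41 without shCtrl replicate 2 (adjusted p = 0.00145), and its adjusted p was 0.0545, 0.0617 and 0.0644 without shNAT10 replicate 1, 2 or 3, in a range from 0.00145 to 0.0644 over all alternatives. For NHP2 the log2 fold change was -0.49 ± 0.13 (adjusted p = 0.0198), and 27.4% of its exon bases are shared with a gene on the opposite strand. The strand setting of the counting is not given in the sources used here, so reads of such overlapping genes cannot be told apart. The same holds for IMP3 (59.3% of exon bases on the opposite strand), HEATR1 (23.2%), TSR1 (20.8%), NOB1 (20.2%), NOP16 (19.95%), NOP14 (17.1%) and RRP7A (15.9%), and LTV1 shares 34.8% with a gene on its own strand. NPM1, BMS1, RRN3 and RRP7A have near-identical pseudogene copies, between which the counting could split reads.

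**Figure D3:**
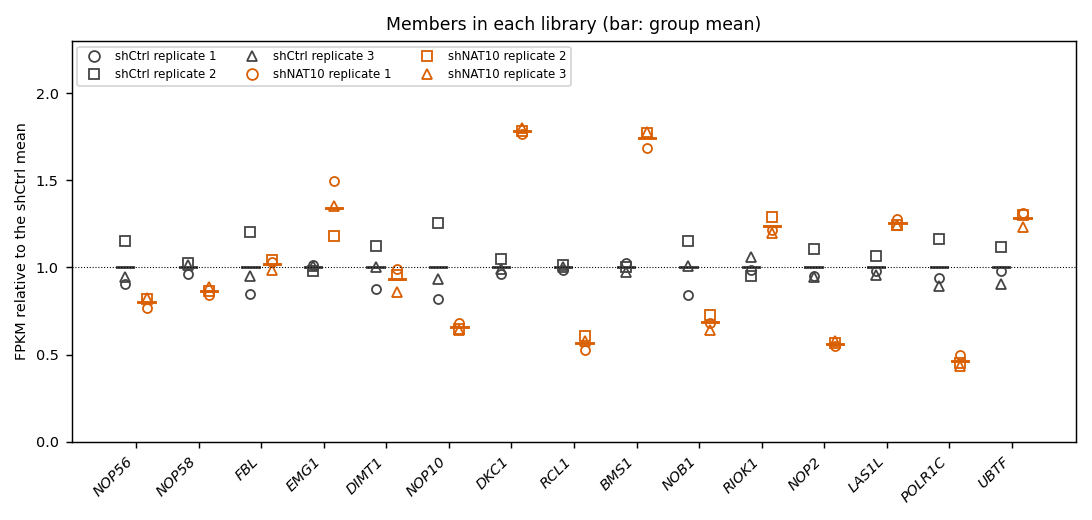
FPKM of 15 factors in each library, divided by the mean of the 3 shCtrl libraries (y axis). Grey symbols are shCtrl and orange symbols shNAT10, the shape gives the replicate number and the bar the group mean. DKC1 and BMS1 lie highest and POLR1C lowest in shNAT10, and shCtrl replicate 2 (grey squares) lies above the other controls for FBL, NOP10 and NOB1.

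In the small-subunit processome, the particle in which NAT10 works, 6 of 23 factors were lower, 3 were higher and 14 were not called, and the median log2 fold change was -0.07. RCL1, which is related to RNA cyclases, fell the most, from 6.24, 6.44 and 6.36 FPKM in shCtrl replicates 1 to 3 to 3.34, 3.83 and 3.66 FPKM in shNAT10 (-0.80 ± 0.08, adjusted p = 0.00058). Its binding partner BMS1, a GTPase of the same particle, rose from 11.8, 11.6 and 11.2 FPKM to 19.4, 20.4 and 20.5 FPKM (0.80 ± 0.06, adjusted p = 0.000225). For both genes the groups were widely separated and the call held in all 17 settings tried, the reported one included. The other lower factors were UTP14A (-0.55), UTP4 (-0.48), WDR75 (-0.43), RRP7A (-0.41) and the U3 snoRNP protein RRP9 (-0.40), and the other higher ones NOL10 (0.46) and MPHOSPH10 (0.26). UTP4 and WDR75 belong to the UTP-A complex, which binds the precursor first. Of the other members of that complex on the list, HEATR1 (0.43, adjusted p = 0.0633), WDR43 (-0.05, adjusted p = 0.717), UTP15 (-0.07, adjusted p = 0.63) and NOL11 (-0.14, adjusted p = 0.158) were not called. MPHOSPH10, IMP3 and IMP4 form one trimer of the U3 particle, in which IMP3 was at -0.25 (adjusted p = 0.126) and IMP4 at -0.18 (adjusted p = 0.0798).

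The base-modifying enzymes of 18S rRNA on the list, EMG1 and DIMT1, were not called. EMG1, which methylates a modified uridine of 18S rRNA, was the lowest of the 55 factors, at 1.51, 1.45 and 1.49 FPKM in shCtrl and 2.22, 1.75 and 2.01 FPKM in shNAT10. Every knockdown library was above every control, but the change of 0.40 ± 0.14 had an adjusted p of 0.0605, in a range from 0.0218 to 0.188 over all alternatives. On the opposite strand, another annotated gene covers 49.5% of its exon bases. DIMT1, the dimethyltransferase that acts near the end of 18S rRNA, was at 8.09, 10.4 and 9.25 FPKM against 9.17, 8.85 and 7.91 FPKM, with overlapping groups (-0.09 ± 0.11, adjusted p = 0.542). Its sign changed to 0.02 with values scaled as TPM.

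Among the 9 factors of late 40S maturation 3 were lower, 2 higher and 4 not called. NOB1, the nuclease that makes the final cut at the end of 18S rRNA, fell from 27.0, 36.8 and 32.3 FPKM to 21.9, 23.4 and 20.5 FPKM (-0.54 ± 0.12, adjusted p = 0.0114), and the groups did not overlap. Its partner PNO1 was lower too (-0.45 ± 0.06, adjusted p = 0.00174), as was BYSL (-0.38 ± 0.12, adjusted p = 0.0425). RIOK1, a kinase of late pre-40S particles, rose from 7.75, 7.46 and 8.34 FPKM to 9.53, 10.1 and 9.42 FPKM (0.30 ± 0.08, adjusted p = 0.0182), a call that was lost without shNAT10 replicate 1, 2 or 3 (adjusted p = 0.0581, 0.0811 and 0.0537, from 0.00648 to 0.0811 over all alternatives). TSR1 was higher (0.22 ± 0.07, adjusted p = 0.0388). The related kinase RIOK2 (0.04 ± 0.06, adjusted p = 0.678), RRP12 (-0.04) and LTV1 (-0.16) were not called.

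For the 60S subunit 1 of 8 factors was lower and 1 higher. NOP2, a methyltransferase of 28S rRNA, fell from 36.5, 42.4 and 36.2 FPKM to 21.1, 21.7 and 22.1 FPKM (-0.82 ± 0.08, adjusted p = 0.000435). All 3 knockdown libraries were far below the controls, though 54.4% of its exon bases are shared with another gene annotated on the same strand. LAS1L, a subunit of the nuclease complex that cuts the precursor between the 5.8S and 28S parts, rose from 16.0, 17.3 and 15.6 FPKM to 20.8, 20.3 and 20.2 FPKM (0.33 ± 0.07, adjusted p = 0.00895). The PeBoW complex of PES1, BOP1 and WDR12 was not called in any subunit, with log2 fold changes of -0.16, -0.31 and 0.02 and adjusted p of 0.266, 0.108 and 0.863. Without shCtrl replicate 2 PES1 was at -0.04 and BOP1 at -0.15, and after the length and GC correction they were at -0.01 and -0.07. BOP1 was at 24.2, 33.1 and 23.4 FPKM against 22.6, 21.4 and 20.4 FPKM, without overlap, and PES1 at 32.2, 41.6 and 33.3 FPKM against 32.0, 32.3 and 31.2 FPKM, with overlap.

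The 2 abundant nucleolar proteins were also not called in the fit of all libraries. NCL, nucleolin, was at 341, 359.9 and 345 FPKM against 342, 344 and 350.1 FPKM (-0.01 ± 0.06, adjusted p = 0.878), and NPM1, nucleophosmin, at 811, 932 and 866 FPKM against 921, 947 and 964 FPKM (0.12 ± 0.07, adjusted p = 0.222). Their knockdown libraries lay within or close to the range of the controls. NPM1 was called higher under 4 alternatives, with 0.23 for TPM (adjusted p = 0.00459), 0.29 for quantile normalization (adjusted p = 0.0117), 0.16 after the length and GC correction (adjusted p = 0.0088) and 0.17 without shCtrl replicate 2 (adjusted p = 0.0205).

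Of the 6 genes for RNA polymerase I transcription, 2 were lower and 1 higher. POLR1C (chr6:43509702-43562419 on GRCh38), a subunit that RNA polymerases I and III share, had the largest change of the 55 factors, from 19.8, 24.5 and 18.8 FPKM in shCtrl to 10.5, 9.46 and 9.17 FPKM in shNAT10 (-1.10 ± 0.11, adjusted p = 0.000535). The groups were well apart, and 18.2% of its exon bases are shared with a gene on the opposite strand. Its size lay at the 2-fold line, since without shCtrl replicate 2, the highest control, its log2 fold change was -0.99 (adjusted p = 5.52e-05). TAF1C, a subunit of the promoter factor SL1, fell as well (-0.65 ± 0.15, adjusted p = 0.0141), while the large subunits POLR1A (0.18) and POLR1B (0.21) and the initiation factor RRN3 (-0.02) were not called. UBTF, which binds the rDNA promoter, rose from 20.8, 23.8 and 19.2 FPKM to 28.0, 27.7 and 26.3 FPKM (0.36 ± 0.09, adjusted p = 0.0177). Without shCtrl replicate 3 its adjusted p was 0.063, and without shNAT10 replicate 1 or 2 it was 0.0694 and 0.0671, in a range from 0.000696 to 0.0694 over all alternatives.

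Transcript length moved with the calls. Of the 18 factors with the shortest transcripts (554 to 2379 bases) 8 were lower and 0 higher by limma, with a median log2 fold change of -0.28, beside a median of -0.13 over 3486 genes of that length, of which 25.8% were lower and 12.97% higher. Of the 18 in the middle (2444 to 4034 bases) 5 were lower and 4 higher, with a median of -0.04, beside -0.04 over 3501 genes with 25.9% lower and 21.8% higher. Of the 19 longest (4183 to 12749 bases) 3 were lower and 4 higher, with a median of 0.13, beside 0.10 over 4590 genes with 16.2% lower and 28.0% higher. Without shCtrl replicate 2 the 3 medians were -0.17, -0.02 and 0.06, and after a correction of each library for length and GC content, chosen after seeing the data, they were -0.15, -0.09 and 0.03. In both of these fits 9 of the 18 shortest were lower and 2 higher, and 4 of the 19 longest were lower and 6 higher. Without shCtrl replicate 2, 25.6% of all genes were lower and 25.4% higher. The shares among all genes of these lengths were not computed for these 2 fits. The length and GC correction kept all 24 calls and gave 19 lower and 13 higher factors, beside 27.1% and 25.9% of all genes.

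A wider list of 113 other ribosome biogenesis genes, of which 110 were tested, gave these counts: 32 were lower (29.1%) and 15 higher (13.6%), beside 21.2% and 20.8% of all genes, with a median log2 fold change of -0.08. Without shCtrl replicate 3 the lower genes were 21 and the higher 10, beside 14.6% and 15.2% of all genes. Without shNAT10 replicate 1, 2 or 3 the lower were 18, 20 and 17 and the higher 10, 11 and 10, beside the shares of all genes given above for those fits. The largest rise was that of NOLC1, a nucleolar chaperone of snoRNPs, from 18.5, 18.1 and 19.2 FPKM to 64.8, 64.0 and 67.3 FPKM (1.81 ± 0.06, adjusted p = 3.05e-05). TCOF1, a relative of it that links RNA polymerase I to rRNA modification, rose from 11.8, 11.7 and 10.6 FPKM to 27.7, 27.5 and 26.7 FPKM (1.26 ± 0.07, adjusted p = 6.55e-05). In both genes every knockdown library was more than 2 times every control, a larger rise than for any of the 55 factors. The processome helicase DHX37 (0.96 ± 0.10, adjusted p = 0.000566) and TSR2, a chaperone of a small-subunit ribosomal protein (0.84 ± 0.12, adjusted p = 0.00161), followed. ABT1, a factor of early 40S assembly, fell the most, from 12.5, 16.5 and 12.6 FPKM to 3.86, 3.45 and 3.09 FPKM (-1.96 ± 0.14, adjusted p = 0.000135), and the 60S factors NOC3L (-1.21 ± 0.09, adjusted p = 0.000179) and RRS1 (-0.84 ± 0.11, adjusted p = 0.00139) and the exosome subunit EXOSC4 (-0.80 ± 0.19, adjusted p = 0.0136) fell too. The call of EXOSC4 was lost without shNAT10 replicate 3 (adjusted p = 0.0534, in a range from 0.00138 to 0.0534 over all alternatives). Among 24 other small-subunit factors 6 were lower and 6 higher, among 45 other large-subunit factors 15 and 6, among 11 snoRNP assembly proteins 4 and 3, among 15 exosome and exonuclease genes 2 and 0, and among 15 other RNA polymerase I genes 5 and 0.

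The acRIP-seq lists hold 16892 peaks in shCtrl and 15813 in shNAT10, each with a ratio of IP to input (its fold enrichment) taken over the pooled samples. With 1 list per group there is no replicate error and no test of a difference between them, and the reads behind a peak are unknown. Of the peaks, 10.3% in shCtrl and 10.6% in shNAT10 lay on genes with a mean below 0.1 FPKM in the RNA-seq, while the lowest of the 55 factors had a mean of 1.74 FPKM. NAT10 mRNA had 3 peaks in shCtrl and 0 in shNAT10. Its RNA was at 27.6% of the shCtrl mean in shNAT10, and the part of that fall in the peak counts was not tested.

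Of the 55 factors, 31 had a peak in shCtrl (56.4%), beside 49.9% of the 12834 genes with a mean of at least 1 FPKM. In shNAT10 38 had one (69.1%), beside 48%. Both lists held a peak for 23 (41.8%), beside 34%. Among the 52 factors with a mean of at least 5 FPKM the shares were 53.8% in shCtrl and 69.2% in shNAT10, beside 60.9% and 58.9% of 8260 genes at that level. The number of peaks on the factors was 47 in shCtrl and 63 in shNAT10, while the whole list was shorter in shNAT10. These counts do not show fewer listed peaks on the factors in the knockdown. By role, the processome factors had 18 peaks in shCtrl and 29 in shNAT10, the late 40S factors 3 and 10, the 60S factors 12 and 9, the RNA polymerase I genes 6 and 8, the abundant nucleolar proteins 4 and 2, the box H/ACA proteins 2 and 3 and the box C/D proteins 2 and 2.

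The median fold enrichment of the peaks on these mRNAs was below that of all peaks, at 13.3 in shCtrl and 21.4 in shNAT10, beside 49.3 and 45.2 over all peaks and 27.2 and 25.5 over peaks on genes with a mean of at least 5 FPKM. A fold enrichment over 10 was reached by 26 of 47 peaks on the factors in shCtrl and 49 of 63 in shNAT10. Over all peaks even the lower quartile was above 10, at 12.8 in shCtrl and 11.8 in shNAT10. A fold enrichment over 100 was reached by 5 of 47 and 11 of 63 peaks on the factors, beside 38.2% and 36.9% of all peaks. In shCtrl the highest values were on RCL1 (1390), BOP1 (1020) and NOL6 (295). In shNAT10 they were on RRP7A (557), RRP1B (453) and RCL1 (285). The midpoint of the BOP1 peak at 1020 lay outside the exons of its longest coding transcript, and the highest shCtrl peak within them was at 62.7. RRP7A, at 5.67, 7.47 and 5.91 FPKM in shCtrl and 4.82, 4.87 and 4.46 FPKM in shNAT10, had no peak in the shCtrl list, and RRP1B, a nucleolar protein at 13.7, 11.8 and 13.4 FPKM against 13.5, 14.3 and 14.7 FPKM (0.13 ± 0.08, adjusted p = 0.251), had 1 at 67.5. Of the enzymes that act on 18S rRNA, EMG1 had 2 peaks in shCtrl, at 3.80 and 3.06, and none in shNAT10, and DIMT1 had none in either. NOP56 had 1 in shCtrl, at 7.82, NOP58 had 1 in shCtrl at 7.04 and 2 in shNAT10 at 21.4 and 28.7, and FBL had none. The midpoints of the EMG1 peak at 3.80 and the NOP58 peak at 21.4 lay outside the exons of their longest coding transcripts.

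Few peaks lay at the same place in both lists. An overlap of at least 1 base on the same strand was found for 10 of 47 peaks in shCtrl (21.3%), beside 25.6% of all shCtrl peaks, and for 10 of 63 in shNAT10 (15.9%), beside 27.4%. These lay on 8 genes, BOP1, NCL, NOB1, NOL6, NPM1, PES1, RCL1 and UTP6. When each peak of a pair had to share 50% or more of its bases, 3 were left in each list, on BOP1, PES1 and UTP6. That was 6.38% of the shCtrl and 4.76% of the shNAT10 peaks on the factors, beside 12.7% and 13.6% of all peaks. UTP6, a processome scaffold at 15.3, 15.5 and 15.6 FPKM against 13.5, 13.6 and 14.3 FPKM (-0.16 ± 0.06, adjusted p = 0.0741), had 2 shared places: one with a fold enrichment of 43.5 in shCtrl and 14.7 in shNAT10, the other with 8.22 and 14.3. The RNA of UTP6 was called lower without shCtrl replicate 2 (-0.16, adjusted p = 0.0436) and after the length and GC correction (-0.26, adjusted p = 0.00749), and was at -0.06 with TPM (adjusted p = 0.572). NOL6, another processome protein, was at 19.3, 18.6 and 18.6 FPKM against 20.4, 18.9 and 18.6 FPKM (0.03 ± 0.07, adjusted p = 0.718), and its shared place had 295 in shCtrl and 17.4 in shNAT10. On RCL1, the processome factor with the largest fall in RNA, the values were 1390 and 213. On PES1 they were 5.61 and 10.4, and on BOP1 6.16 and 23.1, each for a segment of 151 bases. On NOB1 they were 5.63 and 207, but those peaks lay largely apart. They shared 31 bases, 10.3% of the shCtrl and 17.2% of the shNAT10 peak. On NPM1 they were 3.49 and 1.43, with 61 bases shared. On NCL, and at another place on PES1, only 1 base was shared. The direction of these pairs was not uniform, and none can be tested. The PES1 peaks at 5.61 and 10.4, the NOB1 peak at 207 and the NPM1 peak at 1.43 had midpoints outside the exons of their longest coding transcripts.

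The coding segments that both lists called on 3 processome mRNAs, RCL1, NOL6 and UTP6, are shown because they are the places on these factors where the signal was listed with and without the knockdown. They were read from the GENCODE v29 transcripts on GRCh38, 5′ to 3′ along the mRNA, and capitals mark CCG, the trinucleotide in which NAT10 acetylates the middle cytidine of 18S rRNA. The RCL1 segment is chr9:4826875-4826995 on the plus strand, within exon 3 of 9 (codons 76 to 116). The NOL6 segment spans chr9:33465838-33466161 on the minus strand, across exons 18 and 19 of 26 (codons 758 to 808). The UTP6 segment spans chr17:31880673-31884492 on the minus strand, across exons 10 and 11 of 19 (codons 239 to 289).
RCL1: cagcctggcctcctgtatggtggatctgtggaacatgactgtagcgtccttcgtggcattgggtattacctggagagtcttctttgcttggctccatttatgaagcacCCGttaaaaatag
NOL6: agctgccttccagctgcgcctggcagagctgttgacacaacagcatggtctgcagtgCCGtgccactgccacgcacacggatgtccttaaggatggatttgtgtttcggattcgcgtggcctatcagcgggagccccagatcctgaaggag
UTP6: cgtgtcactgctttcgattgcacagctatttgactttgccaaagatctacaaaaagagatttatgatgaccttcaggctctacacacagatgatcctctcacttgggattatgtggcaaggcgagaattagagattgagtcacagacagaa
CCG occurred 1 time in the RCL1 segment, 1 time in that of NOL6 and 0 times in that of UTP6. On the sense strand of the factors' coding sequences it occurred 1.01 times per 100 bases inside shCtrl peaks and 0.797 times outside them, and 0.942 and 0.849 times for shNAT10 peaks. Of the peaks with at least 1 base on the longest coding transcript, wherever their midpoint lay, 31 of 46 in shCtrl and 35 of 62 in shNAT10 held CCG. A match to these letters is not a modified site.

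By the midpoint of the peak on the longest coding transcript, 31 of 47 shCtrl peaks on the factors lay in the coding sequence, 8 in the 3′ UTR and 2 in the 5′ UTR, and 6 lay outside the exons of that transcript. In shNAT10 the counts were 43, 8, 0 and 12 of 63. The coding share was thus 66.0% and 68.3%, beside 49.8% and 48.9% of all peaks on coding genes with a mean of at least 1 FPKM. The highest peak of RRP7A was in its 3′ UTR and that of RRP1B early in its coding sequence (codons 21 to 101).

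Presence of a peak and the RNA change can be set side by side for each factor. Of the 23 factors with a peak in both lists 5 were lower and 4 higher in the RNA-seq, with a median log2 fold change of -0.01. Of the 8 with a peak in shCtrl only (NOP56, WDR75, UTP20, EMG1, DCAF13, LTV1, PNO1 and LAS1L) 3 were lower and 1 higher, with a median of -0.14. Of the 15 with a peak in shNAT10 only 6 were lower and 3 higher, with a median of -0.18, and of the 9 with none 2 were lower and 0 higher, with a median of -0.07. Of all genes tested, 21.2% were lower and 20.8% higher. The shares among all genes of each peak pattern were not computed, so these counts and medians cannot show a link between peaks and RNA change. POLR1C, with the largest fall of all, was among those without a peak, and DKC1, with the largest rise, had 1 peak in each list (fold enrichment 2.75 and 3.17).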

How the data were processed

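RNA-seq of 3 shCtrl and 3 shNAT10 PANC-1 libraries and acRIP-seq of 3 IP and 3 input samples per group were used. The submitters' processing notes name HISAT2, HTSeq 0.11.0 and the build hg38 (GRCh38). Per the labels, the authors counted reads per Ensembl gene and deposited FPKM values. The values were whole multiples of 1 read over the length of the longest GENCODE v29 transcript (98.1% to 98.3% of values below 50 reads, within 0.05 reads), which gave depths of 15831720 to 23521762 reads. The authors deposited 1 peak list per group with the fold enrichment, a ratio of IP to input, and p-values of each peak, and the peak caller is not given in the sources used here. Peak starts were counted from 0 in the lists and are given from 1.

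log2(FPKM + 0.1) was fitted with limma 3.58.1 in R 4.3.3 (mean-variance trend, Benjamini-Hochberg adjustment) for genes with at least 1 FPKM in at least 3 libraries, and fold changes of low genes are understated on this scale. A call was an adjusted p under 0.05. The fit was tested on simulated data. Peaks overlapped when they shared at least 1 base on the same strand, and their position was that of the midpoint on the longest coding transcript. Alternatives were a pseudocount of 1, no filter, a minimum of 5 FPKM, TPM, quantile normalization, median centring, no trend, a replicate block, each library left out, voom on the recovered reads, a length and GC correction (chosen after seeing the data), the 50% of each peak list with the highest fold enrichment or lowest p, and stricter overlap.

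The 55 factors and all lists were chosen with earlier results of these data known. Values were given in every library for NOP56, NOP58, FBL, EMG1 and DIMT1, for the largest called fall and rise without overlap in each functional group, for factors past 2-fold, for those with a shared peak or among the 3 highest fold enrichments of a list, and, with their fold changes, for the 4 largest called falls and rises among the other pathway genes. Further members, and SNU13 of the other pathway genes, were named after their values were seen. One marker of another cell type is not reported here.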

Additional observations from a re-analysis of the deposited data

How the results depend on the processing

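NAT10 stayed lower with an adjusted p under 0.05 in limma under every alternative (log2 fold change -1.88 to -1.79 with single libraries left out). With TPM the median log2 fold change of all genes moved from -0.01 to 0.10 and that of the factors to 0.0577, and 0 factors were past 2-fold. In that fit 23 other pathway genes were higher, beside 25.8% of all genes. Among the genes named by the rule above, DIMT1 (0.0168) and NCL (0.10) changed sign in that fit. Further members did so too, among them GAR1 (0.0821), WDR43 (0.0577) and UTP15 (0.0389). Without a filter 10 of the 55 factors were lower and 7 higher, beside 7.85% and 7.55% of the 29695 genes tested. The length and GC correction gave 13 higher, beside 25.9% of all genes. NCL was also at 0.18 with quantile normalization. With single libraries left out NCL ran from -0.0289 to 0.0109 (above 0 without shCtrl replicate 2), FBL from -0.0676 to 0.18 (below 0 without shCtrl replicate 1) and NOL6 from -0.0062 to 0.0591 (below 0 without shNAT10 replicate 1). Among these only FBL without shCtrl replicate 2 had an adjusted p under 0.05. For the single genes named by that rule, 287 of 309 values kept direction and call under the other alternatives and 158 of 186 with a library left out. Of the rest, 9 and 22 lost the call, 10 and 3 gained it and 3 and 3 changed sign. Members named for other reasons are not in these counts. Leaving out single libraries gave 8 to 18 factors lower, 4 to 12 higher and 0 to 1 past 2-fold, a median of -0.105 to -0.0152, and 17 to 41 other pathway genes lower and 10 to 21 higher. These fits have fewer libraries, and the cause of the other shifts was not tested.

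With the 50% of each peak list with the highest fold enrichment, 8 factors had a peak in shCtrl (14.5%), 13 in shNAT10 (23.6%) and 5 in both (9.09%). Of the genes with a mean of at least 1 FPKM, 30.0%, 28.7% and 14.8% did, so the factors lay below that share in each case. With the 50% with the lowest p-values the factors were 16 (29.1%), 24 (43.6%) and 8 (14.5%), beside 33.2%, 31.8% and 18.5% of those genes. A reciprocal overlap of at least 50% left 3 shared peaks in each list, while 12.7% of all shCtrl and 13.6% of all shNAT10 peaks met it. The 50% with the highest fold enrichment left 1. Regions changed by at most 1 peak with the longest coding sequence.

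The reported fit did not pair libraries with the same replicate number, whose deviations correlated at -0.04, 0.06 and 0.11. The sources used here state no pairing, and these few values cannot settle whether there was one. A fit with the replicate block gave 16 lower and 8 higher factors, beside 20.1% and 19.4% of all genes. Of these factors 22 were called in both fits. NOP58 (-0.21) and TSR1 were no longer called while HEATR1 and NOP16 were.

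With 3 libraries per group, 1 peak list per group and unknown read support of peaks, what can be told is limited. The smallest called change among the factors was 0.21 on the log2 scale.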

Other observations

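HEATR1 and UTP20, long scaffold proteins of the processome, were not called but had non-overlapping groups. HEATR1 was at 20.8, 13.2 and 17.8 FPKM in shCtrl replicates 1 to 3 and at 23.4, 21.5 and 24.2 FPKM in shNAT10, and UTP20 at 9.04, 5.78 and 8.27 FPKM against 10.1, 10.4 and 10.7 FPKM. Without shCtrl replicate 2 their log2 fold changes were 0.26 and 0.26 with an adjusted p of 0.0339 and 0.0138 by limma, and NOP16, a 60S factor with a short transcript and 19.95% of its exon bases shared with a gene on the opposite strand, was at -0.22 with an adjusted p of 0.0151. These 3 genes were chosen after their values were seen.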
